A study of Mus musculus with 42 samples.

Results

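Major histocompatibility complex (MHC) class II genes were followed through the first days after birth in lungs of Nfe2l2 knockout (KO) and wild-type (WT) mice, in room air and in oxygen. Of 7 genes listed by name, 6 had probe sets that name a single gene: H2-Aa, H2-Ab1, H2-Eb1, H2-DMa, Cd74 and Ciita. H2-DMb1 is named here only by probe sets shared with H2-DMb2 and was not analysed here. They are 6 of the 18194 genes tested, and a gene with several probe sets is represented by the brightest of them, judged on all 42 arrays.

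MHC class II molecules are pairs of an alpha and a beta chain that present peptides from endosomes to CD4+ T cells. Dendritic cells, B cells, macrophages and the epithelium of the thymus carry them, and type 2 epithelial cells of the mouse lung do so as well. Their genes share promoter elements, the X and Y boxes, on which the RFX complex and NF-Y assemble and recruit the coactivator CIITA.

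The study used homogenised lungs, 1 pup per Affymetrix array, in 14 groups of 3. The KO pups, labelled Nrf-/-, lack Nfe2l2, which encodes the antioxidant regulator NRF2, and the WT pups are labelled Nrf+/+. Pups of both genotypes were kept in oxygen, with foster dams, and taken at P2, P3 and P4 after 1, 2 and 3 days, or were kept in room air with foster dams and taken at P1 (the day of birth), P2, P3 and P4. The groups are thus KO in O2 (P2 to P4), KO in air (P1 to P4), WT in O2 (P2 to P4) and WT in air (P1 to P4), and no other allele or agent is labelled, nor is the strain given. Values are log2 intensities as deposited, so a difference of 1 is a doubling, and P1 samples exist in air only.

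The promoters of H2-Aa and H2-Eb1, an alpha and a beta chain gene, are shown because their transcripts carry the postnatal rise described below. They run from 250 bases before to 50 bases after the start of the RefSeq gene in build GRCm38.p6, at chr17:34287774-34288073 on the minus strand for H2-Aa and at chr17:34305617-34305916 on the plus strand for H2-Eb1. Capitals mark the Y box letters TGATTGG in both, TGACGTCA (the cyclic AMP response element) in H2-Aa, and AACTGATGA (X box letters) in H2-Eb1. These X box letters are those of H2-Eb1 itself, and other spellings of the X box were not searched, in H2-Aa or elsewhere.
H2-Aa: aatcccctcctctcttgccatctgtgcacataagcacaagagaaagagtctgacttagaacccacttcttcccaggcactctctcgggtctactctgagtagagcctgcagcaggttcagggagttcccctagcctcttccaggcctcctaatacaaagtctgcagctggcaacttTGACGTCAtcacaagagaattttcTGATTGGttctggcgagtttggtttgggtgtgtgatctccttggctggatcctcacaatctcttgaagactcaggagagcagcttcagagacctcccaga
H2-Eb1: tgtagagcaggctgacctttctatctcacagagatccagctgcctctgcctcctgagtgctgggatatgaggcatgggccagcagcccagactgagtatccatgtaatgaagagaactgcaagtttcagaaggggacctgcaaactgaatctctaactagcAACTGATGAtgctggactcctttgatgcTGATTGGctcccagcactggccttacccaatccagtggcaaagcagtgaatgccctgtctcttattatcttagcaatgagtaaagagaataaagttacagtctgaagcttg

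The Y box letters begin 50 bases before the start in H2-Aa, 61 in H2-Eb1 and 63 in H2-DMb1, and occur in 7.82% of 32851 promoter windows of the same length on either strand. The X box letters of H2-Eb1 begin 89 bases before its start and stand 92 bases before that of H2-DMb1. They occur in 0.253% of the windows, 83 in all. TGACGTCA begins 74 bases before the start of H2-Aa and occurs in 1.79% of windows. None of the matches overlap each other, and both windows of H2-DMa hold none of the 3 motifs. H2-Ab1, Cd74 and Ciita had no window in the table and are named only. The H2 genes lie on chromosome 17, Ciita on chromosome 16 and Cd74 on chromosome 18.

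The labels were checked on Nfe2l2 itself. Its level was 4.26 to 5.46 in the 21 KO arrays, against 10.32 to 11.56 in the 21 WT arrays. Array medians over the tested genes lay between 7.52 and 7.75, and arrays of 1 group correlated across genes with r of at least 0.959. 2 arrays stand apart in a way that touches the class II genes: KO pups in air at P2, replicates 1 and 3. There, 11 of 13 T cell and thymocyte markers and 6 of 7 thymic epithelium markers exceeded their level on all other 40 arrays. Rag1, the recombinase of developing lymphocytes, read 12.64 and 12.05 on these 2 arrays, against at most 9.45 elsewhere. Prss16, a protease of thymic epithelium, read 11.29 and 10.59, against at most 7.34. The mean deviation of the thymocyte markers from their average over all arrays was 3.34 and 2.47, against -0.52 to 0.94, and that of thymic epithelium 2.13 and 1.69, against -0.34 to 0.34. The third pup of that group, replicate 2, deviated by 0.72 and 0.34, the latter the highest of the other 40 arrays. No marker reads 0 on this scale. H2-Aa, H2-Ab1, H2-Eb1 and Cd74 were also higher on these 2 arrays than on each of the other 40. Results are therefore given with and without them; leaving them out was chosen with their values known.

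**Figure D1:**
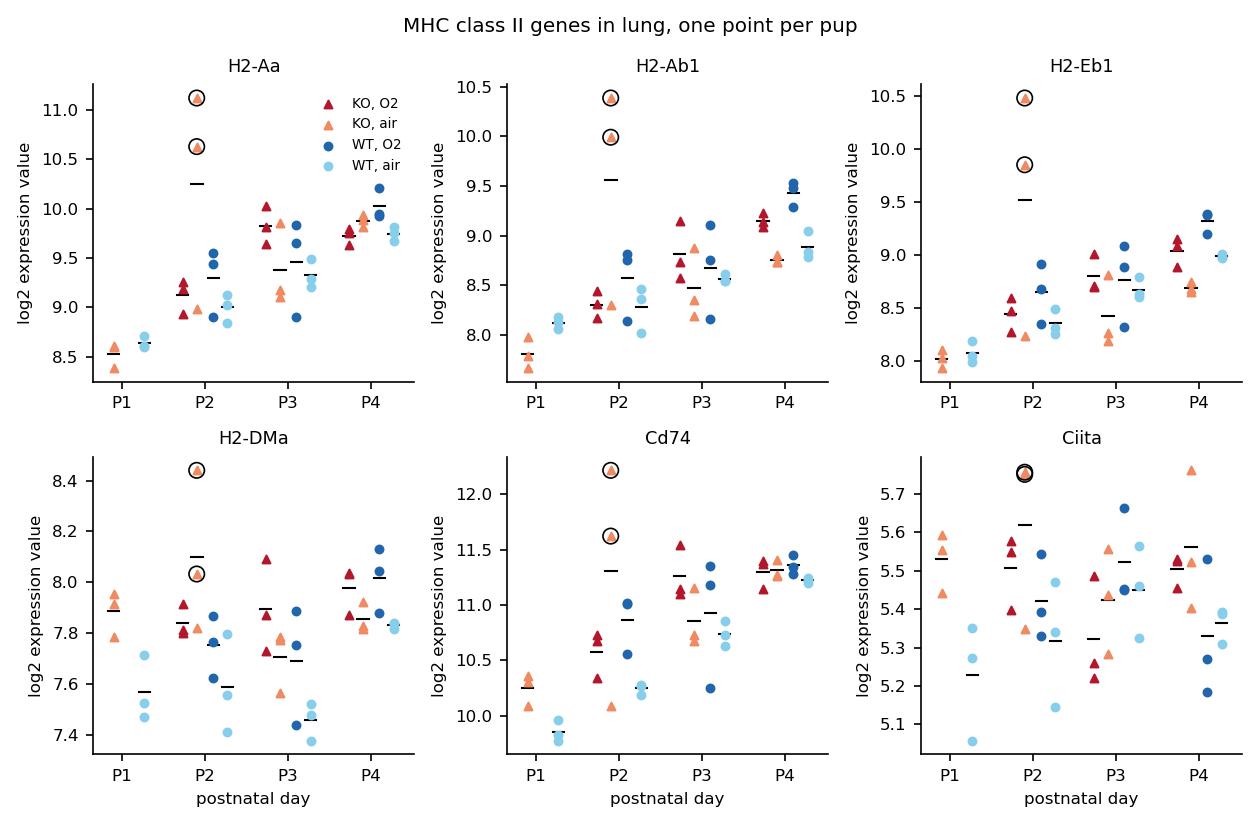
Log2 intensity of the 6 measured class II genes in each pup (y axis) against postnatal day (x axis), with KO in O2, KO in air, WT in O2 and WT in air side by side; black bars are group means and rings mark the 2 thymus-marked KO air P2 arrays. H2-Aa, H2-Ab1, H2-Eb1 and Cd74 lie higher at P4 than at P1 in both genotypes, and the ringed points are the highest of all 42 for these genes.

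In room air, 4 class II genes had higher levels at P4 than at P1 in both genotypes. Between P1 and P4 the transcripts of H2-Aa, the alpha chain of the I-A molecule, and Cd74, the invariant chain that guides class II molecules to endosomes, rose in both genotypes. H2-Eb1, the beta chain of I-E, passed the test in WT, and H2-Ab1, the beta chain of I-A, in KO. H2-DMa, a subunit of the peptide-loading factor H2-M, and Ciita passed in neither. The calls come from limma on all genes, at an adjusted p under 0.05. 3 of 6 members were called higher in KO, where 8.09% of all genes were, and 3 of 6 in WT, where 11.2% were.

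H2-Aa read 8.60, 8.61 and 8.38 at P1, 11.12, 8.98 and 10.63 at P2, 9.86, 9.17 and 9.10 at P3, and 9.94, 9.88 and 9.81 at P4 in KO pups in air. It read 8.71, 8.61 and 8.60 at P1, 9.13, 8.85 and 9.03 at P2, 9.21, 9.28 and 9.49 at P3, and 9.81, 9.75 and 9.67 at P4 in WT pups in air. In both genotypes all P4 pups lay above all P1 pups, and in WT no value of 1 age overlapped the next. The change at P4 from P1 was 1.35 ± 0.29 (SE) in KO, or 2.54-fold (limma adjusted p = 0.00086), and 1.11 ± 0.29 in WT, or 2.15-fold (limma adjusted p = 0.0048).

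Cd74 read 10.36, 10.30 and 10.09 at P1, 12.22, 10.09 and 11.62 at P2, 11.15, 10.68 and 10.73 at P3, and 11.41, 11.26 and 11.27 at P4 in KO pups in air. It read 9.78, 9.96 and 9.83 at P1, 10.19, 10.27 and 10.28 at P2, 10.63, 10.73 and 10.85 at P3, and 11.22, 11.20 and 11.25 at P4 in WT pups in air. Each WT age lay wholly above the one before it. In KO the P4 pups lay above the P1 pups, but at P2 the pup that is not thymus-marked lay within the range of the P1 pups. The change at P4 from P1 was 1.06 ± 0.28 in KO, 2.09-fold (limma adjusted p = 0.0065), and 1.37 ± 0.28 in WT, 2.58-fold (limma adjusted p = 0.000493). Cd74 was also the 1 member called by P3 in WT, 0.88 above P1 (limma adjusted p = 0.024), a comparison in which 11.2% of genes were called higher. In KO limma called 0 of 6 by P3, with 3 at an unadjusted p under 0.05. Without the 2 thymus-marked arrays 3 of 6 were called by P3 in KO (H2-Aa, H2-Ab1 and Cd74, at 0.85, 0.66 and 0.60; 5.89% of genes were called higher) and 3 of 6 in WT (Cd74, H2-Aa and H2-Eb1, at 0.88, 0.69 and 0.60; 12.3% of genes).

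H2-Eb1 read 8.02, 8.10 and 7.93 at P1, 10.48, 8.23 and 9.85 at P2, 8.81, 8.26 and 8.19 at P3, and 8.74, 8.68 and 8.65 at P4 in KO pups in air. It read 8.04, 8.19 and 7.98 at P1, 8.31, 8.26 and 8.49 at P2, 8.60, 8.63 and 8.79 at P3, and 8.97, 9.01 and 8.98 at P4 in WT pups in air. Again each WT age cleared the one before, and the P4 pups cleared the P1 pups in both genotypes. The change was 0.67 ± 0.28 in KO (limma adjusted p = 0.088) and 0.92 ± 0.28 in WT, 1.89-fold (limma adjusted p = 0.016).

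H2-Ab1 read 7.79, 7.66 and 7.98 at P1, 10.39, 8.30 and 9.99 at P2, 8.87, 8.35 and 8.19 at P3, and 8.74, 8.81 and 8.73 at P4 in KO pups in air. It read 8.05, 8.18 and 8.13 at P1, 8.46, 8.01 and 8.36 at P2, 8.61, 8.54 and 8.54 at P3, and 8.79, 8.83 and 9.04 at P4 in WT pups in air. P4 and P1 did not overlap in either genotype, and WT pups of P2 overlapped those of P1. The change was 0.95 ± 0.29 in KO, 1.93-fold (limma adjusted p = 0.018), and 0.76 ± 0.29 in WT (limma adjusted p = 0.056).

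Without the 2 thymus-marked arrays, which lie in neither P4 nor P1 but enter the common estimate of spread, the changes are the same and all 4 genes are called in both genotypes. In KO the limma adjusted p is then 1.57e-06 for H2-Aa, 4.06e-05 for Cd74, 0.000278 for H2-Ab1 and 0.0015 for H2-Eb1, where 9.2% of genes were called higher. In WT it is 7.54e-07 for Cd74, 2.49e-05 for H2-Aa, 3.08e-05 for H2-Eb1 and 0.0023 for H2-Ab1, where 12.4% were. With all 42 arrays, leaving out WT air P1 replicate 3 alone put H2-Eb1 in WT at 0.87 (limma adjusted p = 0.055), and leaving out KO air P1 replicate 2 put H2-Ab1 in KO at 0.87 (limma adjusted p = 0.066).

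H2-DMa read 7.92, 7.79 and 7.95 at P1, 8.44, 7.82 and 8.03 at P2, 7.56, 7.78 and 7.77 at P3, and 7.92, 7.83 and 7.82 at P4 in KO pups in air. It read 7.52, 7.47 and 7.71 at P1, 7.41, 7.56 and 7.80 at P2, 7.52, 7.38 and 7.48 at P3, and 7.82, 7.84 and 7.84 at P4 in WT pups in air. The WT pups of P4 lay above those of P1, and the KO pups of the same ages overlapped. The change was -0.03 ± 0.12 in KO and 0.26 ± 0.12 in WT (limma adjusted p = 0.13).

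Ciita, the master coactivator of the class II promoters, read 5.44, 5.59 and 5.55 at P1, 5.75, 5.35 and 5.76 at P2, 5.44, 5.28 and 5.55 at P3, and 5.52, 5.40 and 5.76 at P4 in KO pups in air. It read 5.06, 5.35 and 5.27 at P1, 5.14, 5.34 and 5.47 at P2, 5.56, 5.46 and 5.33 at P3, and 5.31, 5.39 and 5.39 at P4 in WT pups in air. P4 and P1 overlapped in both genotypes, and the change was 0.03 ± 0.11 in KO and 0.14 ± 0.11 in WT (limma adjusted p = 0.47). Ciita was the dimmest member: its mean, 5.44, stood at percentile 22.5 of the genes, so a change in it is measured near the dim end of the array.

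Over the 6 members the median change from P1 to P4 was 0.81 in KO, against -0.06 over all genes, and 0.84 in WT, against 0.01. All P4 pups lay above all P1 pups for 4 of 6 members in KO, which held for 11.9% of genes, and for 5 of 6 in WT, which held for 19.9%. The genotypes were also compared in the size of the change. The KO change minus the WT change was 0.24 for H2-Aa, 0.18 for H2-Ab1, -0.25 for H2-Eb1, -0.29 for H2-DMa, -0.31 for Cd74 and -0.10 for Ciita. limma called 0 of 6 (0.0275% of all genes were called), and 0 of 6 reached an unadjusted p under 0.05. Between neighbouring ages in WT air limma called 0 of 6 members at each of the 3 steps (14.5%, 3.07% and 0.0055% of genes were called either way), with 0, 0 and 1 at an unadjusted p under 0.05. H2-Aa, H2-Eb1 and Cd74 did not overlap at any of these steps; all pups of the later age lay above all of the earlier one for 11.3%, 15.2% and 7.28% of genes. In homogenised lung, more cells of a type and more RNA per cell cannot be told apart.

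**Figure D2:**
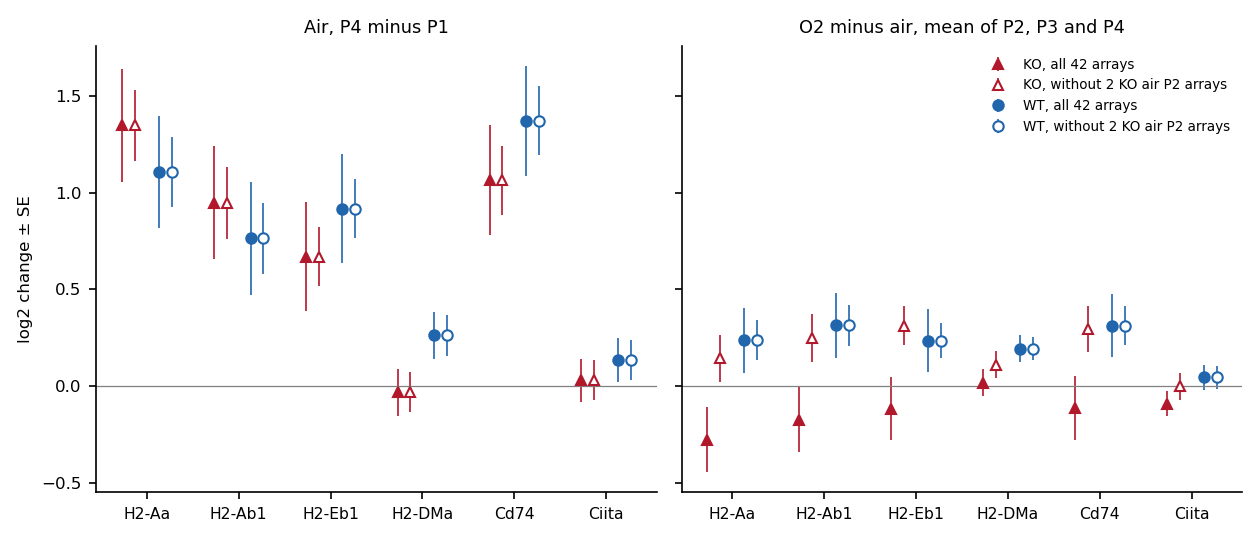
Log2 change ± SE of each class II gene, with air P4 minus P1 on the left and O2 minus air (mean of P2 to P4) on the right, in KO and WT; filled symbols use all 42 arrays and open symbols leave out the 2 thymus-marked arrays. The postnatal changes of H2-Aa, H2-Ab1, H2-Eb1 and Cd74 lie between 0.67 and 1.37, and the changes in O2 are smaller and in KO shift upward when the 2 arrays are left out.

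In O2 the class II genes had small changes of mixed direction. Averaged over P2 to P4, 5 of 6 members had negative changes in KO with none called, and all 6 had positive changes in WT with only H2-DMa called. The KO signs turn for most members without the 2 thymus-marked pups, which belong to its air group at P2. Apart from Ciita, the KO changes then ran from 0.11 for H2-DMa to 0.31 for H2-Eb1.

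In KO in O2, H2-Aa read 8.93, 9.18 and 9.26 at P2, 9.82, 9.64 and 10.03 at P3, and 9.75, 9.80 and 9.63 at P4. In WT in O2 it read 9.55, 9.44 and 8.90 at P2, 8.91, 9.84 and 9.65 at P3, and 10.21, 9.93 and 9.95 at P4. The KO pups of P2 in O2 all lay below both thymus-marked air pups, and at P4 they lay below all KO pups in air, whereas the WT pups in O2 at P4 lay above all WT pups in air. The mean change in O2 was -0.27 in KO (limma adjusted p = 0.28) and 0.24 in WT (limma adjusted p = 0.36).

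H2-Ab1 read 8.17, 8.31 and 8.44 at P2, 8.73, 8.58 and 9.15 at P3, and 9.23, 9.13 and 9.09 at P4 in KO in O2. In WT in O2 it read 8.82, 8.75 and 8.14 at P2, 8.16, 9.10 and 8.76 at P3, and 9.53, 9.29 and 9.47 at P4. At P4 every pup in O2 lay above every pup in air of its genotype. The P4 difference was 0.39 ± 0.29 in KO (limma adjusted p = 0.33) and 0.54 ± 0.29 in WT (limma adjusted p = 0.18; 0.025 without the 2 arrays).

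H2-Eb1 read 8.27, 8.47 and 8.59 at P2, 8.70, 8.70 and 9.00 at P3, and 9.09, 9.15 and 8.88 at P4 in KO in O2. In WT in O2 it read 8.91, 8.67 and 8.34 at P2, 8.31, 9.08 and 8.88 at P3, and 9.39, 9.20 and 9.37 at P4. It, too, was higher in every P4 pup in O2 than in every P4 pup in air, in both genotypes, by 0.35 in KO (limma adjusted p = 0.37) and 0.33 in WT (limma adjusted p = 0.43).

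Cd74 read 10.34, 10.67 and 10.72 at P2, 11.14, 11.10 and 11.54 at P3, and 11.14, 11.37 and 11.39 at P4 in KO in O2. In WT in O2 it read 11.02, 11.01 and 10.56 at P2, 10.25, 11.35 and 11.18 at P3, and 11.35, 11.28 and 11.45 at P4. At P2 all WT pups in O2 exceeded all WT pups in air, the single member with such a gap at that age (13.7% of genes had one), by 0.62 ± 0.28 (limma adjusted p = 0.24). Without the 2 arrays this difference is called (limma adjusted p = 0.035; 3.74% of genes were called higher). By P4 the change was down to -0.01 in KO and 0.14 in WT.

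H2-DMa read 7.80, 7.81 and 7.91 at P2, 7.87, 7.73 and 8.09 at P3, and 7.87, 8.03 and 8.04 at P4 in KO in O2. In WT in O2 it read 7.87, 7.77 and 7.62 at P2, 7.44, 7.89 and 7.75 at P3, and 8.13, 7.88 and 8.04 at P4. The WT values in O2 overlapped those in air at P2 and P3 and lay above them at P4. Its mean change was 0.02 ± 0.07 in KO and 0.19 ± 0.07 in WT (limma adjusted p = 0.039). The WT call was lost on leaving out any 1 of 13 of the 42 arrays. Ciita changed by -0.09 in KO and 0.05 in WT (limma adjusted p = 0.70), and its single values in O2 ran between 5.22 and 5.58 in KO and between 5.19 and 5.66 in WT.

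Counted over members, O2 against air averaged over P2 to P4 gave 0 of 6 called by limma in KO (20.8% of genes were called either way), with 0 at an unadjusted p under 0.05. In WT it gave 1 of 6 called higher, where 14.4% of genes were. Without the 2 arrays limma called H2-Eb1 in KO, at 0.31 (adjusted p = 0.027; 12.6% of genes were called higher). The other KO changes were then 0.30 for Cd74 (limma adjusted p = 0.080), 0.25 for H2-Ab1 (limma adjusted p = 0.17), 0.15 for H2-Aa, 0.11 for H2-DMa and 0.00 for Ciita. With the thymocyte marker score as a covariate, limma called 4 members higher in KO in O2, from 0.45 for H2-Aa to 0.62 for H2-Eb1 and Cd74. Leaving out KO air P2 replicate 2, so that only the thymus-marked pups stand for that group, it called the same 4 genes lower, from -0.48 for H2-Aa to -0.31 for Cd74. In WT without the 2 arrays, H2-DMa (limma adjusted p = 0.015), Cd74 (0.022), H2-Ab1 (0.027) and H2-Eb1 (0.046) were called and H2-Aa was not (0.097), against 15.7% of genes called higher.

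At P2 the KO pups in O2 had lower class II levels than KO pups in air. The difference was -1.25 for H2-Ab1 (limma adjusted p = 0.0051), -1.12 for H2-Aa (limma adjusted p = 0.012) and -1.08 for H2-Eb1 (limma adjusted p = 0.012), where 3.33% of genes were called lower. Of the 3 air pups, replicates 1 and 3 are the thymus-marked ones. Set against the other KO air pup alone, assumed to vary like the other groups, the differences were 0.01, 0.14 and 0.21. That single pup itself deviated by 0.72 in thymocyte and 0.34 in thymic epithelium markers. The medians of the 40 arrays without the thymus-marked ones were -0.25 and -0.13. At P3 the changes in KO were 0.45 for H2-Aa, 0.41 for Cd74, 0.38 for H2-Eb1 and 0.35 for H2-Ab1, with 0 of 6 called by limma (12.6% either way) and 0 at an unadjusted p under 0.05.

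At P4, after 3 days in O2, all KO pups in O2 lay above all KO pups in air for 2 of 6 members and below for 1 (24.4% and 17% of genes). All WT pups in O2 lay above all WT pups in air for 5 of 6 members, which held for 21.7% of genes. limma called 0 of 6 in KO (31.7% of genes either way) and 0 of 6 in WT (27.5% of genes either way), with 0 at an unadjusted p under 0.05 in each. Without the 2 arrays H2-Ab1 was called in WT. Set against the day of birth, the P4 pups in O2 had 4 of 6 members called higher in KO (14.8% of genes) and 5 of 6 in WT (17.7%). In KO these changes were 1.34 for H2-Ab1, 1.19 for H2-Aa, 1.05 for Cd74 and 1.02 for H2-Eb1. In WT they were 1.51 for Cd74, 1.39 for H2-Aa, 1.31 for H2-Ab1, 1.25 for H2-Eb1 and 0.45 for H2-DMa (limma adjusted p = 0.0037). These comparisons share their P1 pups with the ones in air.

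2 WT pups in O2 read low for their groups. WT O2 P3 replicate 1 was the lowest of its group in H2-Aa, H2-Ab1, H2-Eb1, H2-DMa and Cd74, with a mean class II deviation of -0.36 against 0.30 and 0.13 in the other pups, and its heart muscle markers deviated by 3.27. The pup at 0.30, replicate 2, deviated by 0.94 in thymocyte markers, the highest of the 40 arrays without the thymus-marked ones. WT O2 P2 replicate 3 had a mean class II deviation of -0.33 against 0.13 and 0.02 in the other pups. Its liver markers deviated by 4.35, against -1.58 and -1.57 in those pups. For the other WT pups with the highest liver marker deviations, class II deviations are given beside those of their groups' other pups. WT air P2 replicate 2 had 6.57 in liver markers and -0.44 in class II, against -0.38 and -0.25. WT air P3 replicate 2 had 4.71 and -0.15, against -0.13 and -0.07. WT air P4 replicate 3 had 4.54 and 0.21, against 0.17 and 0.185. WT air P1 replicate 2 had 4.38 and -0.52, against -0.62 and -0.56. WT O2 P4 replicate 1 had 3.83 and 0.49, against 0.37 and 0.43. The part of heart and liver RNA in the 2 low readings was not tested. Without the 2 low WT O2 arrays, an alternative added after seeing the data, 3 members were called higher in WT in place of 1, where 13.8% of genes were. With 4 tissue scores as covariates, 3 were called (4928 of 18194 genes).

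The O2 effect was compared between genotypes. Averaged over the 3 days, the KO effect minus the WT effect was negative for all 6 members, from -0.51 for H2-Aa to -0.14 for Ciita. limma called 0 of 6 (1.19% of genes were called either way), and 2 of 6 reached an unadjusted p under 0.05. Without the 2 thymus-marked arrays the differences lay between -0.09 and 0.08, with 0 called.

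KO and WT pups were then compared at matched treatment. The labels give no strain, and H2-Ea, H2-K1 and H2-D1 also differed between the genotypes, as given below. Whether any difference between KO and WT comes from the Nfe2l2 allele was not tested. The mean over 4 ages in air was higher in KO for H2-DMa by 0.28 (limma adjusted p = 0.00091), for Ciita by 0.19 (limma adjusted p = 0.0099) and for Cd74 by 0.42 (limma adjusted p = 0.028), 3 of 6 where 14.5% of genes were called higher. H2-Aa at 0.33 (limma adjusted p = 0.084), H2-Ab1 at 0.19 and H2-Eb1 at 0.14 were not called. Without the 2 arrays H2-DMa alone was called, at 0.21 (limma adjusted p = 0.0096; 12.8% of genes), while Cd74 stood at 0.11 (limma adjusted p = 0.43) and Ciita at 0.13 (limma adjusted p = 0.11). Without KO air P2 replicate 2, all 6 were called higher in KO, from 0.23 for Ciita to 0.57 for Cd74. By age, 5 of 6 members were called higher in KO at P2 (7.98% of genes), where 2 of the 3 KO pups are the thymus-marked ones. The other KO pup itself deviated by 0.72 in thymocyte markers. Against this pup alone the differences were -0.015 for H2-Aa, 0.021 for H2-Ab1, -0.12 for H2-Eb1, -0.16 for Cd74, 0.23 for H2-DMa and 0.030 for Ciita. With all arrays 0 of 6 were called at P1, P3 and P4 (6.78%, 21.6% and 0.726% either way), where 2, 1 and 0 members reached an unadjusted p under 0.05. In O2 the mean over 3 days differed for 0 of 6 (limma; 12.5% of genes either way), with 0 at an unadjusted p under 0.05 and differences from -0.15 for H2-Eb1 to 0.085 for H2-DMa. Beside these values, 6 of 15 macrophage and monocyte markers were lower in KO in air and 6 of 15 in O2 (14.4% and 6.18% of all genes were), with Csf1r, the receptor of a macrophage growth factor, at -0.39 and -0.47, and all 7 liver markers were lower in KO in air. Their part in the genotype differences was not tested.

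Across the 14 groups H2-Aa was highest in KO air P2 (10.24 ± 1.12, SD, n = 3), followed by WT O2 P4 (10.03 ± 0.16), KO air P4 (9.88 ± 0.06), KO O2 P3 (9.83 ± 0.19) and WT air P4 (9.74 ± 0.07). Its lowest groups were WT air P2 (9.00 ± 0.14), WT air P1 (8.64 ± 0.06) and KO air P1 (8.53 ± 0.13). The 2 P1 groups overlapped each other and lay below every other pup. H2-Ab1 and H2-Eb1 had the same 2 groups at the top, KO air P2 and WT O2 P4, then KO O2 P4 and WT air P4, and the same 2 P1 groups at the bottom. Cd74 was highest in WT O2 P4 (11.36 ± 0.09) and lowest in WT air P1 (9.85 ± 0.09). H2-DMa spanned less, with 8.10 ± 0.31 in KO air P2 and 7.46 ± 0.07 in WT air P3.

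The members moved together to different degrees over the arrays. The correlation between H2-Ab1 and H2-Eb1 was 0.97 over 42 arrays and 0.95 without the 2 thymus-marked ones, and that between H2-Aa and Cd74 was 0.95 and 0.94. H2-DMa correlated with these 4 genes at 0.60 to 0.65, and at 0.46 to 0.56 without the 2 arrays. Ciita correlated with H2-Aa at 0.24, and at -0.02 without them. These points share groups of the same age and treatment, so the coefficients are descriptions.

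Several probe sets measure H2-Aa, and they gave unlike differences between the genotypes. The one used above, 1435290_x_at, and 1438858_x_at changed from P1 to P4 by 1.35 and 1.15 in KO and by 1.11 and 1.12 in WT. Probe set 1452431_s_at changed by 1.24 in KO and 1.15 in WT, and averaged over air it was higher in KO by 0.83 (limma adjusted p = 0.00022 over 34958 probe sets; 0.52 without the 2 arrays). Probe set 1443783_x_at is dim: it read 3.56 to 3.92 in KO and 3.80 to 4.99 (median 4.20) in WT, and the 10th percentile of the tested genes is 4.57 on the median array. All its KO values and its WT median thus lie below that level, and its highest WT value lies above. Its differences are measured near the floor of the array and are not read as a direction for H2-Aa. It was lower in KO (-0.47) in air (limma adjusted p = 2.17e-05) and (-0.68) in O2 (limma adjusted p = 1.6e-06), and changed from P1 to P4 by -0.057 in KO and 0.41 in WT (limma adjusted p = 0.053). The suffixes mark probe sets that can match more than 1 transcript. For H2-Ab1 the other probe sets changed from P1 to P4 by 1.34 and 0.69 in KO and by 0.92 and 0.73 in WT. The other H2-DMa probe set, without the 2 thymus-marked arrays, changed by 0.11 in KO and 0.005 in WT. In air it was higher in KO by 0.18 (limma adjusted p = 0.084). The other Ciita probe sets were then higher in KO in air by 0.05 and 0.03 (limma adjusted p = 0.53 and 0.69).

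H2-Ea, a neighbour of these genes that encodes the I-E alpha chain and is annotated as a transcribed pseudogene in GRCm38.p6, differed between the genotypes on 2 of its 3 probe sets. On 1422892_s_at it read 5.47 to 9.09 (median 7.13) in the 21 KO arrays, against 4.14 to 4.79 (median 4.46) in the 21 WT arrays, with no overlap. In KO in air it read 6.41, 5.47 and 6.09 at P1, 9.09, 6.08 and 8.39 at P2, 7.47, 6.67 and 6.79 at P3, and 7.51, 7.56 and 7.57 at P4, while in WT in air it read 4.52, 4.41 and 4.41 at P1, 4.52, 4.64 and 4.14 at P2, 4.41, 4.25 and 4.53 at P3, and 4.60, 4.34 and 4.32 at P4. It thus changed from P1 to P4 by 1.55 in KO (limma adjusted p = 0.0026) and by -0.03 in WT. The probe set that stands for the gene, 1422891_at, was higher in KO by 1.10 in air and 0.84 in O2 (limma adjusted p = 0.00043), and 1426202_at read 3.78 to 4.17 in KO and 3.73 to 4.16 in WT, below the 10th percentile in both. On 1422892_s_at the WT median also lay below it.

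**Figure D3:**
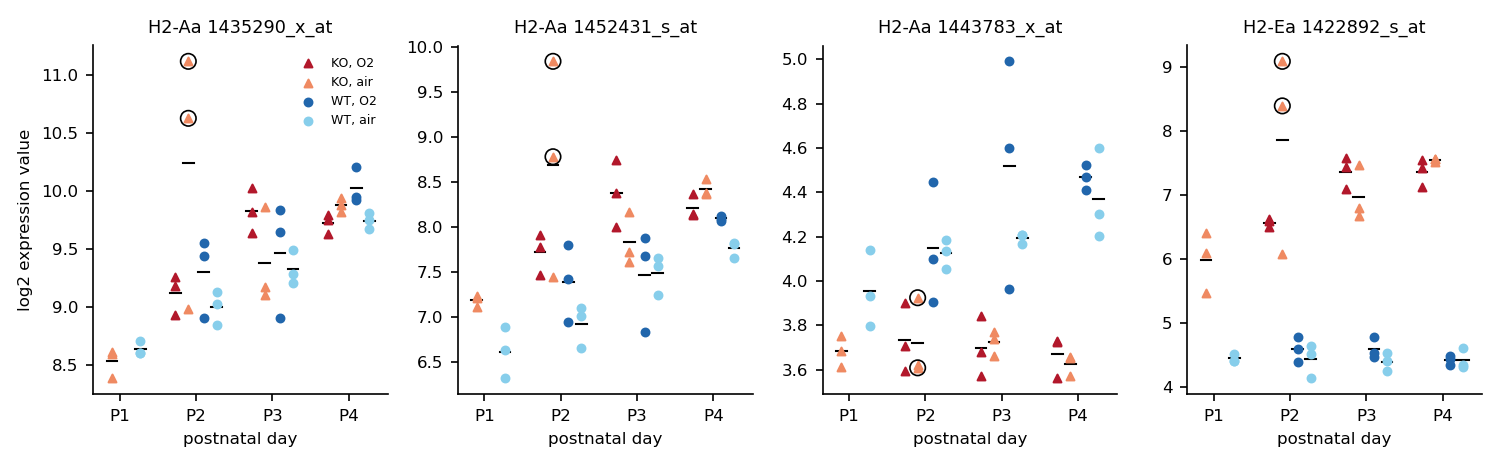
Log2 intensity (y axis) by postnatal day (x axis) for 3 probe sets of H2-Aa and 1 of H2-Ea in each pup, with KO and WT in O2 and in air. 1443783_x_at, a dim probe set, reads 3.56 to 3.92 in KO, and H2-Ea 1422892_s_at lies at 5.47 or higher in every KO pup and at 4.79 or lower in every WT pup.

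Of 5 other genes of the class II region (H2-Ea, H2-Eb2, H2-Oa, H2-Ob and H2-DMb2), 0 were called by limma from P1 to P4 in either genotype (1 in KO and 0 in WT at an unadjusted p under 0.05) and 0 in O2 (2 in KO and 0 in WT). Of all genes, 21.6% in KO and 22.4% in WT were called either way from P1 to P4, and 20.8% and 23.9% in O2. Without the 2 thymus-marked arrays H2-Ea was called higher at P4 in KO, at 0.64 (limma adjusted p = 0.046). Between genotypes in air 3 of 5 were higher in KO, namely H2-Ea, H2-DMb2 (0.36) and H2-Eb2 (0.11, named after its value was seen), and H2-Ob, a chain of the H2-M inhibitor H2-O, was lower (-0.50). Over all genes 14.5% were higher and 14.4% lower in KO in air. In O2, H2-Ea was higher and H2-Ob lower (-0.41), where 6.3% of all genes were higher and 6.18% lower. H2-Ob is dim, with a median of 4.40 in KO and 4.80 in WT beside the 10th percentile of 4.57, so these differences are measured near the floor of the array.

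Class II molecules also depend on enzymes and partners, listed here from general knowledge. Of 15 measured genes for processing, trafficking and co-stimulation, 0 were higher and 4 lower at P4 than at P1 in KO, and 1 was higher and 3 lower in WT, where 13.5% of all genes were lower in KO and 11.3% in WT. Ctsh, a lysosomal protease, fell by 0.70 in KO and 0.89 in WT, and Ifi30, a lysosomal thiol reductase, fell by 0.53 and 0.46. In O2 the same list gave 8 higher and 1 lower in KO and 8 higher and 0 lower in WT, with 13.5% and 14.4% of all genes higher. The legumain gene Lgmn rose by 0.46 in KO and 0.45 in WT, the cathepsin gene Ctsd by 0.29 and 0.31, and the co-stimulatory ligand gene Icosl by 0.72 in WT. The list's median change in O2 was 0.22 in KO and 0.28 in WT, against 0.01 over all genes in each.

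Of 22 measured regulators of class II, at P4 1 was higher and 4 lower in KO, and 2 were higher and 7 lower in WT. Over all genes 8.09% were higher and 13.5% lower in KO, and 11.2% higher and 11.3% lower in WT, so the KO counts are close to those of all genes. Irf8, a transcription factor of the myeloid lineage, fell by 0.73 in KO and 0.65 in WT. In O2, 4 were higher and 2 lower in KO (3 and 0 without the 2 arrays), and 6 were higher and 1 lower in WT, where 13.5% and 14.4% of all genes were higher and 7.28% and 9.53% lower. Spi1, which encodes PU.1, rose by 0.46 in KO and 0.60 in WT, and Prdm1, a repressor of Ciita, rose by 0.53 and 0.44. Between genotypes Rfx5, a subunit of the RFX complex, was lower in KO, at -0.18 in air and -0.21 in O2.

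Class I presentation genes were compared beside them. Of 13 measured, 1 was higher and 1 lower at P4 in KO (3 and 1 without the 2 arrays), and 2 were higher and 0 lower in WT. With all arrays these counts are close to the shares over all genes given for the regulators. B2m, the light chain of class I molecules, rose by 0.38 in KO and 0.37 in WT. H2-K1 was higher in KO than in WT by 1.14 in air and 0.93 in O2, and H2-D1 by 1.09 and 0.91.

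Markers of cells that can carry class II were set beside the rise, and their counts stand against the same shares over all genes. Of 15 macrophage and monocyte markers, at P4 against P1 0 were higher and 1 lower in KO (Csf1r, -0.37), and 0 were higher and 2 lower in WT (Mertk, -0.71, and Mpeg1, -0.47). Their mean level was 8.48 to 8.55 at P4 and 8.64 to 8.76 at P1 in KO air, and 8.72 to 8.79 and 8.80 to 8.88 in WT air. Of 14 dendritic cell markers 1 was higher in KO (Fscn1, 0.44), and in WT 1 was higher (Fscn1, 0.52) and 1 lower (Zbtb46, -0.93). Of 11 B cell markers, 0 were higher and 1 lower in KO, and limma called 0 in WT, with 0 at an unadjusted p under 0.05. Of 11 type 2 epithelial markers, 10 were lower in KO and 9 in WT, with Sftpd, the surfactant protein D gene, at -0.93 and -1.20. Of 13 T cell and thymocyte markers, 1 was higher in KO (Rag1) and 0 in WT by limma, with 4 and 0 at an unadjusted p under 0.05. Without the 2 thymus-marked arrays 5 were higher in KO, where 9.2% of genes were, and 0 in WT. Their part in the rise of the class II genes was not tested.

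In O2 most macrophage and monocyte markers rose. Of 15, 8 were higher in KO (10 without the 2 arrays) and 10 in WT, with 0 lower, beside 13.5% and 14.4% of all genes higher. Cd68, a lysosomal marker of macrophages, rose by 1.10 in KO and 1.05 in WT, and the endotoxin co-receptor gene Cd14 by 1.11 and 1.02. At P4 the mean deviation of the list was 0.26 to 0.58 in KO O2, against -0.32 to -0.25 in KO air, and 0.42 to 0.68 in WT O2, against -0.09 to -0.01 in WT air. Of the dendritic cell markers, 4 were higher and 1 lower in KO and 3 higher in WT. Batf3, a factor for cross-presenting dendritic cells, rose by 0.60 in KO and 0.46 in WT, and Itgax, which encodes CD11c, by 0.46 in WT. Of the B cell markers, 3 were higher in KO and 4 in WT, with Cd79a at 0.47 and 0.48. All 13 thymocyte markers were lower in KO in O2 than in air, and 9 of 13 without the 2 arrays, where 7.28% and 7.3% of all genes were lower. The 2 arrays lie on the air side of this comparison, and KO air P2 replicate 2, which stays in, deviated by 0.72 in these markers.

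**Figure D4:**
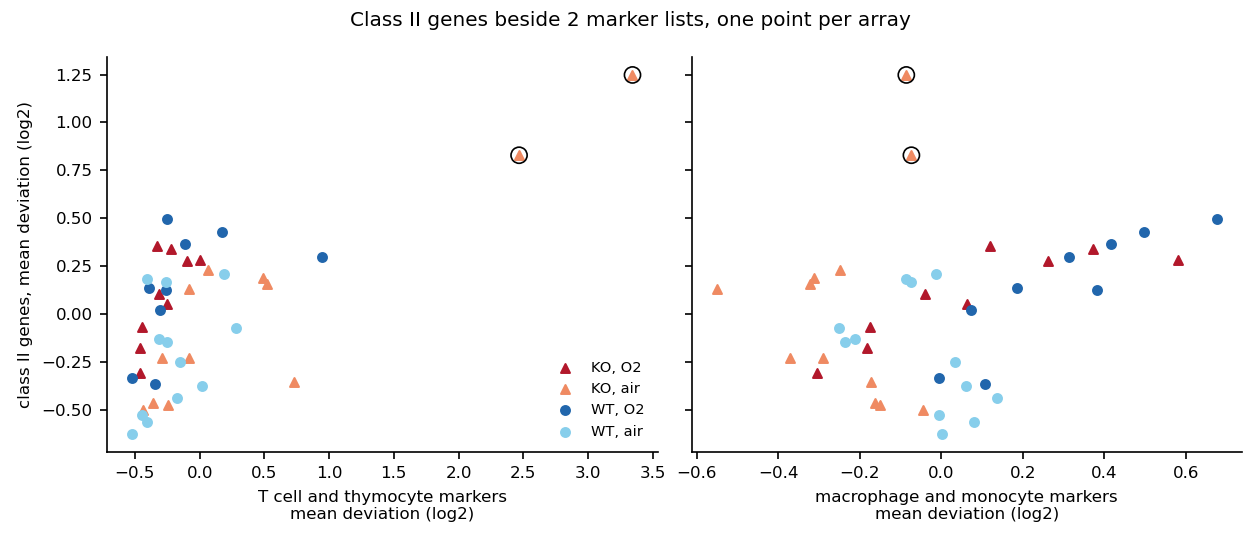
Mean log2 deviation of the 6 class II genes per array (y axis) against that of the T cell and thymocyte markers (left, x axis) and of the macrophage and monocyte markers (right, x axis), with 1 point per array coloured by genotype and treatment. The 2 thymus-marked KO air P2 arrays sit at 3.34 and 2.47 on the left and at -0.09 and -0.07 on the right, with the highest class II deviations of all, 1.25 and 0.83.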

How the data were processed

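RNA of whole homogenised lungs was hybridised, 1 mouse per array, to Affymetrix mouse expression arrays, per the labels' protocols. The deposited table holds log2 intensities of 45101 probe sets; GCOS and RMA are named, without a version, in the submitters' processing notes. RMA normalizes the arrays to each other, so a shift shared by most genes can be hidden. No further normalization was applied to the deposited log2 values. The probe annotation gives 1 gene symbol for 34958 probe sets, several for 932 and none for 9211; only the first were tested, 1 per gene (highest mean), giving 18194 genes.

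Titles assign the samples to groups. A single limma 3.58.1 model (R 4.3.3) of 14 group means took all 42 arrays (28 residual degrees of freedom; 38 contrasts, 7 of them leading), p-values being two-sided and adjusted by Benjamini-Hochberg over all genes of a contrast. Changes have standard errors (SE) from this fit. The procedure was tested on simulated data. The number of arrays limits precision. Each p-value sets a difference between group means against the spread between pups, pooled over the 14 groups.

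The members and gene lists were chosen with earlier results of these data known. All members are named; from each list up to 3 called genes with the smallest p per leading comparison, H2-Ea, H2-K1 and H2-D1, and the 8 genes most like the members. A list's deviation is the mean over its genes of the difference from their mean over all arrays. Promoter sequences are from RefSeq, build GRCm38.p6; 4 of 7 members matched. Alternatives were cyclic loess, array weights, robust variances with an intensity trend, a filter on low values, other probe sets, fits on only the arrays of a contrast, a replicate block, scores of other tissues as covariates, and leaving out arrays.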

Additional observations from a re-analysis of the deposited data

Results flagged for a closer look

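H2-Ab1 was the 1 class II gene whose O2 effect differed between genotypes on a single day by the test of the difference itself. At P2 the KO effect minus the WT effect was -1.54 (limma adjusted p = 0.036; 1.35% of genes were called lower in this comparison). The KO effect was -1.25 and the WT effect 0.29. H2-Aa (-1.42), H2-Eb1 (-1.37) and Cd74 (-1.35) had differences of like size that were not called, with limma adjusted p of 0.053, 0.054 and 0.063. The KO air group at P2 holds the 2 thymus-marked arrays, where H2-Ab1 read 10.39 and 9.99, against 8.30 in the third pup. Without them the difference for H2-Ab1 was -0.28 (limma adjusted p = 0.80). At P3 and P4, with all arrays, it was 0.24 and -0.15.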

How the results depend on the processing

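The members called from P1 to P4 numbered 3 in each genotype and stayed within 1.5 times of that under the other settings, except for 5 in WT with array weights. WT in O2 against air (1 called) gave 0 with cyclic loess and with the mean of all probe sets, 3 with the thymocyte score and with 4 tissue scores as covariates, 5 with array weights, 4 without the 2 thymus-marked arrays, and 3 without 2 WT O2 arrays (added after seeing the data). KO in O2 against air (0) gave 1 with array weights, 4 with the thymocyte score, 3 with 4 tissue scores and 1 without the thymus-marked arrays. The genotype difference in the O2 effect (0) gave 3 with array weights. KO against WT in air (3) gave 1 with the thymocyte score, with 4 tissue scores and without the thymus-marked arrays. Among changes called in the main or the other setting, signs turned in KO in O2 with the thymocyte score (H2-Aa 0.45, H2-Ab1 0.57, H2-Eb1 0.62, Cd74 0.62), with 4 tissue scores (H2-Ab1 0.55, H2-Eb1 0.57, Cd74 0.60) and without the thymus-marked arrays (H2-Eb1 0.31). Without those arrays, uncalled changes in KO in O2 also turned for H2-Aa (0.15), H2-Ab1 (0.25) and Cd74 (0.30). In KO against WT in air, signs of called changes turned with the thymocyte score (H2-Eb1 -0.34, Cd74 -0.066) and with 4 tissue scores (H2-Eb1 -0.39, Cd74 -0.18). They also turned in H2-Aa probe set 1443783_x_at (-0.47, and -0.057 for KO P4 against P1). Its KO values and its WT median lie below the 10th percentile of genes, while its highest WT value lies above. Uncalled signs in air turned for H2-Ab1 (-0.13) and H2-Eb1 (-0.18) without the thymus-marked arrays. The cause was not tested. Leaving out each array in turn gave 2 to 4 members called for P4 against P1 in KO and in WT, 0 to 4 in O2 in KO, 0 to 3 in O2 in WT, 0 to 4 for the genotype difference in the O2 effect, 2 to 6 for KO against WT in air and 0 to 0 in O2. The highest counts for KO in O2, the genotype difference and KO against WT in air came without KO air P2 replicate 2, which leaves the 2 thymus-marked pups as that group. Cd74 in KO against WT in air was lost without KO air P2 replicate 1 (0.30, limma adjusted p = 0.061), replicate 3 (0.38, 0.055) or KO air P3 replicate 1 (0.38, 0.055). With the replicate number as a replicate block the 7 counts were 3, 3, 1, 0, 0, 3 and 0, as without it. Same-numbered arrays had a mean correlation of 0.0061 in their deviations and others -0.0011, which shows no pairing by number on average. A mean over all genes and groups cannot exclude a pairing of some pups. Calls over all genes moved by more than 1.5 times with array weights (6381 against 4083 for WT P4 against P1, 985 against 217 for the genotype difference, 4530 against 2270 for KO against WT in O2), loess (442 against 217), the thymocyte score (2456 against 3788 for KO in O2) and 4 tissue scores (2496 against 3788, and 3221 against 5271 for KO against WT in air). After loess the share of higher calls was 51.3% in place of 37.4% for KO P4 against P1, 49.9% in place of 65.0% for KO in O2 and 42.3% in place of 57.1% for the genotype difference. Under the filter on low values Ciita was not tested. With 3 pups a group and Ciita near the dim end of the array, small changes could not be resolved.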

Other observations

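The genes whose pattern over the 14 group means was most like the mean deviation of the class II genes were Ccr7 (r = 0.92), Ms4a4b (0.92), B2m (0.91), Gimap3 (0.90), Nudt21 (0.89), Ncbp1 (0.89), Ddx39a (0.89) and Cacybp (0.88). These group means include the 2 thymus-marked arrays. Over single arrays without those 2, r was 0.83 for Ccr7, 0.88 for Ms4a4b, 0.72 for B2m and 0.67 for Gimap3. It was 0.79 for Nudt21, 0.78 for Ncbp1, 0.85 for Ddx39a and 0.81 for Cacybp. These are descriptions over groups that share age and treatment. Ccr7, the receptor that leads dendritic and T cells to lymph nodes, averaged 6.25 ± 0.09 in KO air at P4 and 5.91 ± 0.18 at P1 (SD, n = 3 each), and 6.42 ± 0.16 and 5.85 ± 0.23 in WT air. Ms4a4b, a membrane protein of T cells, averaged 6.52 ± 0.33 at P4 and 4.66 ± 0.25 at P1 in KO air, and 7.15 ± 0.12 and 4.70 ± 0.18 in WT air. In WT air its values did not overlap between any neighbouring ages.

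Of 8 alveolar macrophage markers, at P4 against P1 limma called 0 higher and 2 lower in KO and 2 higher and 1 lower in WT. Over all genes 8.09% were higher and 13.5% lower in KO, and 11.2% higher and 11.3% lower in WT. Siglecf, a surface lectin of these cells, rose by 1.17 in WT, and Chil3 fell by 1.69 in KO and by 1.62 in WT. Between genotypes 5 of 8 were lower in KO in air, where 14.4% of all genes were, and 3 of 8 in O2, where 6.18% were. The scavenger receptor gene Marco stood at -0.83 and -1.03. Of 7 endothelial markers, 1 was lower in KO at P4 and 2 in WT, with Emcn at -0.41 and -0.78. The KO count is close to the share of all genes lower at P4 in KO, 13.5%.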
